A study of Mus musculus with 16 samples.

Results

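The 42 interferon-stimulated genes described here are the gene symbols of a list chosen with earlier results of these data known, looked up by name in a count table of 49568 symbols, where all 42 were found. They comprise 34 genes that type I interferon is known to induce, 5 GTPases best known as targets of interferon gamma, and 3 genes of the immunoproteasome and of peptide transport. They were measured by RNA-seq in deep digital flexor tendons of male mice aged 9 to 11 weeks, in 4 groups of 4 libraries, each from 1 animal. C57 uninjured and C57 injured tendons came from C57BL/6J, a common inbred laboratory strain, and MRL uninjured and MRL injured tendons from MRL/MpJ, an inbred strain studied for its wound healing. The injured tendons had a partial laceration through 50% of the tendon of the third digit of the hind paw and were taken at 7 days post injury (dpi), whereas the uninjured tendons were not cut. The labels give no transgene and no treatment other than the laceration. The sheath and peritendinous tissue were not removed, so each library holds RNA of every cell type around the tendon, and in such bulk RNA a larger number of cells of a type cannot be told apart from more RNA per cell.

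Interferons are secreted cytokines that bind receptors on nearly all nucleated cells. The type I receptor signals through JAK1 and TYK2 to a complex that holds STAT2 and IRF9 and binds the interferon-stimulated response element in the promoters of antiviral genes. The interferon gamma receptor signals through JAK1 and JAK2 and acts on promoters through the gamma-activated site, inducing IRF1, guanylate-binding proteins, immunity-related GTPases and the antigen presentation machinery. Most of these genes respond in some degree to both kinds of interferon, so the grouping used here is by textbook emphasis. In injured tissue they are best known from macrophages and other infiltrating leukocytes, although fibroblasts and endothelial cells respond too.

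The promoters of 32 of the 42 members were found in RefSeq on GRCm38.p6, in windows from 250 bases before to 50 bases after each annotated start. The response element was searched as GAAANNGAAA and its reverse complement TTTCNNTTTC, and the gamma-activated site as TTCNNNGAA, which is its own reverse complement. The response element letters occurred in 17 of the 32 members with a promoter (53.1%), against 3.99% of 27025 genes searched in the same way. They occurred in 5 of 5 GTPases, in 12 of 24 type I genes and in 0 of 3 immunoproteasome and transport genes, and a window without them says nothing about more distant sites. The gamma-activated site letters occurred in 9 of the 32 members (28.1%), against 9.55% of all genes searched. The stretches of 80 bases below, all upstream of the RefSeq start and written along the strand of the gene, are examples from members whose window held a match. Capitals mark the response element letters, and in Psmb8 those of the gamma-activated site.
Ifit1 (chr19:34640755-34640834, plus strand): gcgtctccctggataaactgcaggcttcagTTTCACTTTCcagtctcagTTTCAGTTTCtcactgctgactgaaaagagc
Ifit3 (chr19:34583343-34583422, plus strand): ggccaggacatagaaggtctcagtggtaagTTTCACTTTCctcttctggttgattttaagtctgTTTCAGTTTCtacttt
Isg15 (chr4:156200847-156200926, minus strand): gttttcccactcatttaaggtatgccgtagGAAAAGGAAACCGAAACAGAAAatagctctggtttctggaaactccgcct
Oas1a (chr5:120907526-120907605, minus strand): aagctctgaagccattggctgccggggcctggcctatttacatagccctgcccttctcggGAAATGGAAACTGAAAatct
Trim30a (chr7:104465194-104465273, minus strand): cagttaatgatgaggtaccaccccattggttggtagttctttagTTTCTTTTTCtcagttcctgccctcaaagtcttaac
Gbp3 (chr3:142559964-142560043, plus strand): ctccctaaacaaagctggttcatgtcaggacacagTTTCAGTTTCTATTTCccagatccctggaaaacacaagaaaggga
Irgm1 (chr11:48871421-48871500, minus strand): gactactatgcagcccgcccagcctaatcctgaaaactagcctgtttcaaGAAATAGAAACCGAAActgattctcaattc
Psmb8 (chr17:34198068-34198147, plus strand): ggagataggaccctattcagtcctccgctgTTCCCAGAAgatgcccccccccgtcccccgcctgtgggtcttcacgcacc

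In Isg15, Oas1a, Gbp3 and Irgm1 the marked run is made of overlapping matches spaced 6 bases apart, and in Ifit1 and Ifit3 it is a pair of separate matches. The first match began 104 bases before the start in Ifit1, 156 in Ifit3, 78 in Isg15, 20 in Oas1a, 36 in Trim30a, 45 in Gbp3 and 30 in Irgm1. The match in Psmb8 began 97 bases before the start. Of the members called by edgeR below, Psmb8, Ifit2, Oasl2 and Isg20 had no response element match in their windows, and Zbp1 and Ifi27 had no window. The stretches of Psmb8 and Irgm1 and the end of that of Gbp3 fall inside the longer gene spans of GENCODE. In GENCODE release M21 of GRCm38 the IFIT genes (Ifit1, Ifit2, Ifit3 and Ifit3b) lie together on chromosome 19, Gbp2, Gbp3 and Gbp7 on chromosome 3, and Psmb8, Psmb9 and Tap1 on chromosome 17. The 5 OAS genes are all on chromosome 5, where Oasl1 and Oasl2 lie together and Oas1a, Oas2 and Oas3 lie together elsewhere. Psmb8 spans chr17:34197721-34201454 on the plus strand, Oas1a chr5:120896256-120907521 on the minus strand, and Trim30a chr7:104409025-104465193 on the minus strand. Neighbours in these families are similar in sequence, the Parp9 and Dtx3l genes and the Psmb9 and Tap1 genes overlap on opposite strands, and no source used here gives the strand setting of the counting, so the division of reads among them is uncertain.

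Library totals lay between 12552424 and 23741648 counts, and their median was 14560249.5 in C57 injured and 23460742.5 in MRL injured tendon. Values are given below as CPM (counts for every 1000000 counts of the library), on library sizes scaled by the trimmed mean of M values (TMM), and 3 counts, taken as the floor, correspond to 0.126 to 0.241 CPM. In every list of 4 values the libraries stand in the order replicate 1 to 4 for uninjured tendon, BI-181, then BI-183, then BI-184, then BI-185 for C57 injured, and BI-270, then BI-272, then BI-274, then BI-275 for MRL injured. C57 uninjured replicate 4 stood apart, with epidermal markers at 6.63% of its counts against at most 0.0715% in any other library, and its Spearman correlation with the other libraries of its group was at most 0.834. BI-181 held skeletal muscle markers at 7.1% of its counts. The tendon markers were high in all 16 libraries, with a summed level from 33650 CPM in BI-181 to 115900 CPM in BI-272. The median log2 fold change over all genes tested lay between -0.06 and -0.03 in the 5 comparisons.

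**Figure D1:**
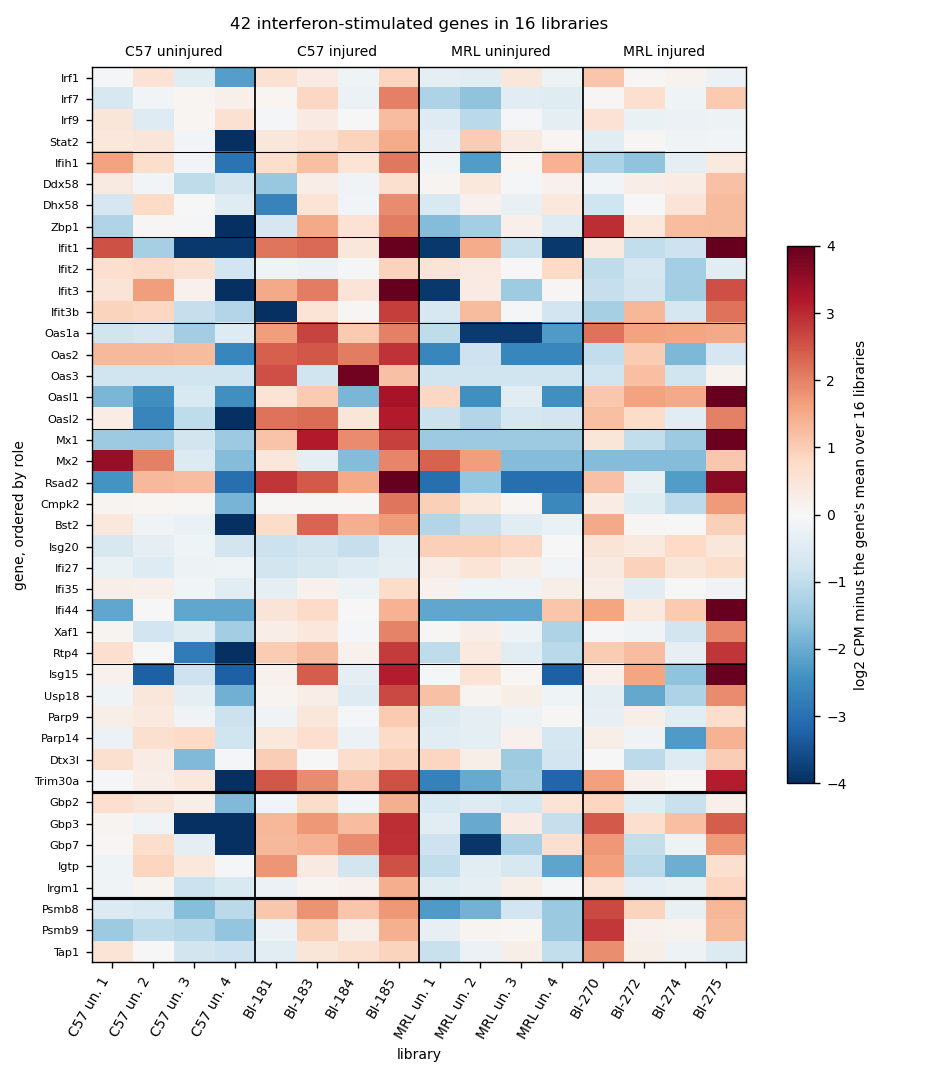
Heat map of the 42 members (vertical axis, ordered by role, with thick lines below the type I genes and below the GTPases) in 16 libraries (horizontal axis, by group). Colour is log2 CPM minus the mean of the gene over the 16 libraries, with the scale ending at -4 and 4. BI-185 and BI-275 show most type I genes in red, C57 uninjured replicate 4 shows many in blue, and BI-270 shows the GTPases and immunoproteasome genes in red.

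The first comparison asks which members changed in C57 tendon at 7 dpi. A gene was called when edgeR's quasi-likelihood test gave a Benjamini-Hochberg adjusted p-value under 0.05 over all genes tested and an absolute log2 fold change over 1. Of the 42 members 37 passed the low count filter of this fit, and 1 of them, Psmb8, was called higher after injury, beside 0.908% of all 14424 genes tested. None was called lower, beside 0.166% of all genes. The fold change was positive in 34 of the 37, with a median log2 fold change of 1.10 against -0.05 over all genes, and 9 of 37 had an unadjusted p-value under 0.05, beside 15.3% of all genes. The injured and uninjured libraries did not overlap in 10 members, all higher after injury, which is 10 of 37 beside 7.42% of all genes for higher and 4.17% for lower levels. DESeq2, run as a second tool without the low count filter, called 5 of 42 members, all higher, beside 4.15% called higher and 1.33% called lower of all 16563 genes to which it gave an adjusted p. On simulated counts of this comparison DESeq2 found more of the changed genes than edgeR and made more false calls.

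Psmb8, the inducible catalytic subunit of the immunoproteasome also known as LMP7, measured 6.38, 6.16, 2.78 and 4.4 CPM in C57 uninjured and 20, 32.6, 20.4 and 31.4 CPM in C57 injured tendon. Every injured library was above every uninjured one, with a log2 fold change of 2.35 (SE 0.35, adjusted p = 0.0217). The call was lost when any of 6 libraries was left out (C57 uninjured replicates 1, 2 and 3, BI-183, BI-184 or BI-185), with a highest adjusted p of 0.101 and a log2 fold change that was at least 2.16 without any single library. Psmb9, another inducible subunit of the same particle, measured 2.28, 3.11, 2.85 and 2.11 CPM before and 5.52, 12.8, 7.58 and 17.5 CPM after injury. Its groups did not overlap either, and its log2 fold change of 2.01 (SE 0.46) had an edgeR adjusted p of 0.0748. Tap1, which carries peptides into the endoplasmic reticulum for loading on MHC class I, measured 14.4, 9.78, 5.86 and 5.49 CPM in uninjured and 7.26, 13.9, 15.6 and 18.5 CPM in injured C57 tendon, and its groups overlapped.

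Of the type I genes 29 were tested in C57 and 0 were called by edgeR, with 6 at an unadjusted p-value under 0.05 and DESeq2 called 3 of all 34, Oas1a, Oasl2 and Mx1. The median log2 fold change of the 29 was 0.99 and 26 were positive. Oas1a and Oasl2, of the family whose products make the messenger that activates RNase L or are relatives of these enzymes, had the smallest edgeR adjusted p-values among them. Oas1a measured 0.873, 0.972, 0.54 and 1.08 CPM in C57 uninjured and 5.4, 11.1, 3.44 and 6.88 CPM in C57 injured tendon, with no overlap. Its log2 fold change was 2.89 (SE 0.57, edgeR adjusted p = 0.0525). Oasl2, an OAS-like protein, measured 3.83, 0.389, 1.47 and 0 CPM before and 14.4, 14.9, 4.41 and 28.5 CPM after injury. BI-185 was the highest of its injured libraries and the groups did not overlap, but the spread was wide, with a log2 fold change of 3.42 (SE 1.15, edgeR adjusted p = 0.214). Without C57 uninjured replicate 1 the log2 fold change of Oasl2 was 4.62. Xaf1, a pro-apoptotic partner of XIAP, measured 9, 4.79, 5.86 and 3.06 CPM in uninjured and 9.96, 11.1, 7.91 and 33.1 CPM in injured C57 tendon. BI-185 lay far above the other libraries, and the log2 fold change of Xaf1 of 1.40 (SE 0.54, edgeR adjusted p = 0.271) became 0.76 without BI-185.

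Among the type I genes that passed the low count filter, the others whose C57 groups did not overlap were Oas2, Rsad2, Bst2 and Trim30a. Rsad2, which encodes viperin, measured 0.0672, 2.27, 2.16 and 0 CPM in uninjured and 6.9, 5.24, 2.66 and 20.2 CPM in injured C57 tendon. Bst2, the tetherin that retains budding virions, measured 9.87, 6.74, 6.17 and 0 CPM before and 12.5, 37.3, 20.4 and 24.6 CPM after injury. In both genes C57 uninjured replicate 4 was at 0, and BI-185 was the highest library for Rsad2 whereas BI-183 was the highest for Bst2. Mx1, a dynamin-like antiviral GTPase, was under the floor in every C57 uninjured library, and measured 0.6, 2.83, 1.1 and 2.06 CPM in C57 injured tendon, all above the floor. Mx1 was left out of the edgeR fit by the low count filter, as were Oas3, Oasl1, Mx2 and Ifi44, but its groups did not overlap and DESeq2 called it higher (adjusted p = 0.000307). Ifi44 had its lowest injured value only just above its highest uninjured one, both 0.389 CPM.

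The 4 type I transcription factors overlapped between the C57 groups. Irf7, the amplifier of type I interferon production, measured 5.78, 8.36, 9.56 and 10.3 CPM in uninjured and 9.48, 16.1, 7.71 and 36.9 CPM in injured tendon, and Irf1, the factor most tied to interferon gamma, 19.4, 30.1, 14.3 and 4.28 CPM and 30.4, 25.4, 17.9 and 36.4 CPM. Irf9 and Stat2, which both belong to the type I complex, measured 22.3, 29.9, 23.5 and 55.6 CPM and 19.9, 22.1, 27.1 and 41.2 CPM in injured tendon, beside 33.4, 16.3, 24.8 and 36.5 CPM and 19.7, 20.3, 13.6 and 0.447 CPM in uninjured tendon. In all 4 factors BI-185 was the highest injured library. Among the GTPases, 5 of 5 had a positive fold change with a median of 1.13 and 0 were called, with 1 at an unadjusted p-value under 0.05 and 0 called by DESeq2. Gbp3 measured 5.78, 4.79, 0 and 0 CPM before and 13.6, 18.1, 12.7 and 42.3 CPM after injury, and Gbp7 5.1, 7.97, 3.7 and 0.0638 CPM and 12.1, 13.1, 18.3 and 38 CPM. These guanylate-binding proteins, which coat vacuoles of intracellular pathogens, had no overlap between the C57 groups. Gbp2 measured 36, 31.5, 26.6 and 6.51 CPM before and 20.6, 37.7, 21 and 62 CPM after injury. Igtp, an immunity-related GTPase also called Irgm3, measured 5.91, 12.4, 9.02 and 6.38 CPM and 23.3, 8.63, 3.96 and 39.9 CPM, and the related Irgm1 27.4, 32.3, 16.5 and 19.8 CPM and 25.3, 32.5, 33.8 and 82.4 CPM. These last 3 overlapped between the groups.

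The same question was asked in MRL tendon. Of 37 members tested 6 were called higher in MRL injured tendon, beside 5.25% of all 14274 genes tested, and 1 was called lower, beside 2.15% of all genes. The fold change was positive in 31 of 37, with a median log2 fold change of 0.87 against -0.03 over all genes. At an unadjusted edgeR p-value under 0.05 there were 14 of 37, beside 28.3% of all genes. Of the 29 type I genes tested 23 were positive, with a median log2 fold change of 0.62. The groups did not overlap in 10 members with higher and 1 with lower levels after injury, beside 13.5% and 9.44% of all genes. DESeq2 called 11 members higher and 1 lower of 37 to which it gave an adjusted p, beside 6.86% and 4.14% of all 16521 genes. The members that passed the edgeR test higher were Psmb8, Trim30a, Gbp3, Oas1a, Zbp1 and Oasl2, and the one that passed it lower was Ifit2. They come from several roles, namely 4 type I genes, 1 of 5 GTPases and 1 of 3 immunoproteasome and transport genes among those that rose.

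Psmb8 measured 1.86, 2.45, 5.49 and 3.29 CPM in MRL uninjured and 59.4, 17.5, 7.63 and 23.4 CPM in MRL injured tendon. It rose by a log2 fold change of 3.05 (SE 0.61, edgeR adjusted p = 0.0124), and BI-270 stood highest. Without BI-270 the log2 fold change was 2.28 and the call held, as it did without any other single library. Psmb9 measured 5.17, 6.92, 6.8 and 2.25 CPM before and 47.1, 7.25, 7.14 and 15.7 CPM after injury, and Tap1 5.3, 8.29, 11.6 and 4.9 CPM and 36.2, 11.6, 8.51 and 6.79 CPM. Both had BI-270 far above the other libraries and neither passed the edgeR test. The median log2 fold change of the 3 immunoproteasome and transport genes was 1.88 in MRL, beside 2.01 in C57.

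Trim30a, a TRIM-family protein that dampens inflammatory signalling, measured 0.265, 0.505, 0.836 and 0.161 CPM in MRL uninjured and 7.81, 2.77, 2.51 and 22.3 CPM in MRL injured tendon. All injured libraries were above all uninjured ones, BI-275 the most, with a log2 fold change of 4.30 (SE 0.89, edgeR adjusted p = 0.0141). Without BI-275 it was 3.28, and the call held without any single library. In C57 the same gene measured 2.28, 2.92, 3.24 and 0 CPM before and 13.9, 9.3, 5.19 and 14.7 CPM after injury, again with no overlap, but it was not called. Gbp3 measured 3.91, 1.23, 6.62 and 2.73 CPM in MRL uninjured and 29.4, 8.57, 12.4 and 28.8 CPM in MRL injured tendon. Its log2 fold change was 2.46 (SE 0.57, edgeR adjusted p = 0.0225), and BI-270 and BI-275 were its high libraries. The call on Gbp3 was lost without MRL uninjured replicate 1, MRL uninjured replicate 4 or BI-270, with a highest adjusted p of 0.0628.

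Oas1a was close to the floor in uninjured MRL tendon, at 0.729, 0, 0 and 0.241 CPM, and measured 7.65, 5.12, 5.03 and 4.84 CPM in MRL injured tendon. The 4 injured libraries were close together and all above the uninjured ones. Its log2 fold change of 4.51 (SE 1.09, edgeR adjusted p = 0.0266) rests on uninjured counts at or near 0, was 6.14 without MRL uninjured replicate 1, and lost its call without MRL uninjured replicate 2 or 4, BI-270 or BI-272 (highest adjusted p 0.0651). Oasl2 measured 1.66, 1.3, 1.85 and 1.77 CPM before and 7.27, 5.17, 2.29 and 12.7 CPM after injury. Its log2 fold change was 2.07 (SE 0.58, edgeR adjusted p = 0.045), and the call held in only 1 of the 8 fits that left out a library, that without BI-274, with adjusted p-values from 0.0209 to 0.121. Zbp1, a sensor of Z-form nucleic acid that triggers necroptosis, measured 0.862, 1.15, 3.58 and 2.17 CPM before and 25.2, 4.26, 7.45 and 7.68 CPM after injury. BI-270 stood far above the other libraries, and the log2 fold change of 2.52 (SE 0.67, edgeR adjusted p = 0.0377) became 1.72 without BI-270 (adjusted p = 0.125). The call on Zbp1 was also lost without MRL uninjured replicate 1, 2 or 4.

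Ifit2, of the family that binds viral RNA and blocks its translation, was the 1 member called lower. It measured 32, 29.4, 22.3 and 38.9 CPM in MRL uninjured and 11, 14, 8.55 and 16.4 CPM in MRL injured tendon, with every injured library below every uninjured one. It fell by 1.29 on the log2 scale (SE 0.27, edgeR adjusted p = 0.015), and the call held without any single library. In C57 Ifit2 measured 35.5, 37.9, 34.2 and 12.9 CPM before and 19.9, 19, 20.9 and 42.5 CPM after injury, where BI-185 was the highest and C57 uninjured replicate 4 the lowest library and the groups overlapped, with a log2 fold change of -0.28 (SE 0.39, edgeR adjusted p = 0.791) that lay between -0.60 and -0.12 when a library was left out. Ifit1, a cap-binding member, measured 0, 4.76, 0.836 and 0 CPM in MRL uninjured and 2.19, 0.771, 0.882 and 57.6 CPM in MRL injured tendon. Ifit3 measured 0.199, 5.7, 1.61 and 4.74 CPM before and 2.35, 2.67, 1.68 and 28.1 CPM after injury, and its near-identical copy Ifit3b 2.19, 8.58, 3.28 and 2.01 CPM and 1.3, 8.84, 2.12 and 15.9 CPM. In these 3 genes only BI-275 lay above the range of the uninjured libraries, with the exception of BI-272 for Ifit3b.

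**Figure D2:**
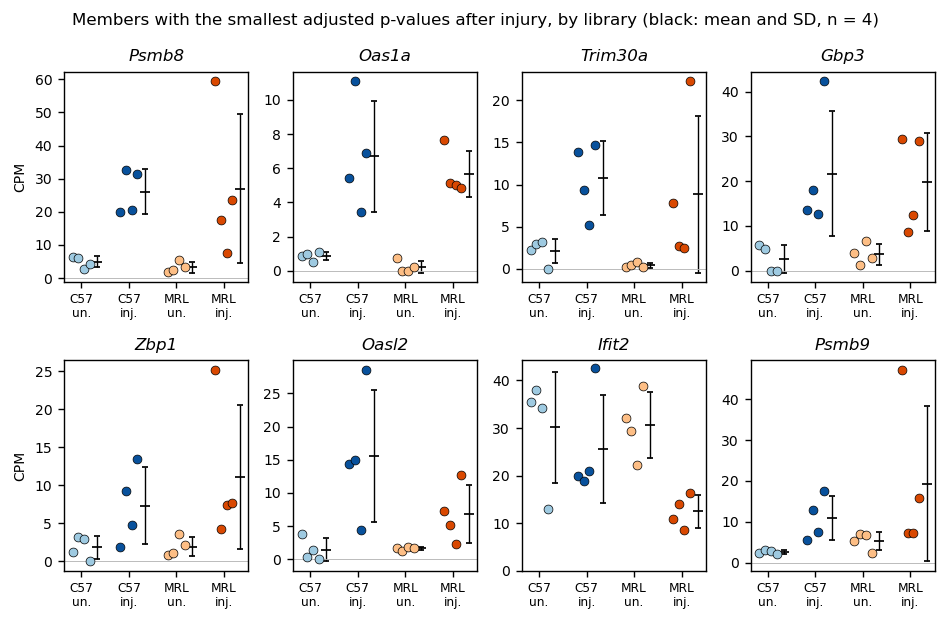
CPM of 8 members, the 7 called by edgeR in MRL after injury and Psmb9 (1 panel each, vertical axis CPM from 0). The 4 groups are on the horizontal axis, with 1 point per library and a black mean with SD, n = 4. Ifit2 is lower in all 4 MRL injured libraries than in all MRL uninjured ones, and Psmb8 reaches 59.4 CPM in BI-270.

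Isg15, a ubiquitin-like modifier, measured 0.994, 1.59, 1.07 and 0 CPM in MRL uninjured and 1.22, 3.35, 0.265 and 25.5 CPM in MRL injured tendon, and 1.21, 0, 0.54 and 0 CPM and 1.2, 6.1, 0.778 and 10.2 CPM in C57. Usp18, which removes ISG15 and restrains the type I receptor, measured 9.58, 2.95, 5.33 and 47.3 CPM in MRL injured beside 28.8, 13.6, 14.8 and 11.2 CPM in MRL uninjured tendon. In C57 Usp18 measured 11.2, 17.3, 9.87 and 3.25 CPM before and 13.6, 15.1, 8.88 and 80.1 CPM after injury. In both genes the highest injured library was BI-185 in C57 and BI-275 in MRL, and the groups overlapped in each strain. Rsad2 was at or under the floor in every MRL uninjured library and measured 2.06, 0.68, 0.0882 and 12 CPM in MRL injured tendon, where BI-274 was under the floor too. Mx1 was at 0 in every MRL uninjured library and measured 0.336, 0.0453, 0 and 4.84 CPM after injury, so that 2 of the 4 injured libraries were under the floor. Bst2 measured 3.18, 3.89, 5.31 and 6.11 CPM before and 21.1, 7.57, 7.49 and 14.5 CPM after injury and Irf7 3.78, 2.88, 6.57 and 6.43 CPM and 9.24, 14.5, 7.93 and 18.6 CPM, and both had no overlap and were called by DESeq2 but not by edgeR.

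Among the other MRL members, Irf1 measured 15.3, 14.9, 27.3 and 17.4 CPM before and 43.3, 20.8, 22.4 and 17.1 CPM after injury, with BI-270 highest. Irf9 measured 16.6, 11, 22.7 and 18 CPM and 35, 19.6, 20.2 and 20.4 CPM, and Stat2 11.7, 29.6, 18.9 and 15.5 CPM and 10.6, 15.2, 13.2 and 13.6 CPM. Ifih1, the MDA5 sensor of long double-stranded RNA, measured 4.71, 1.01, 5.49 and 13.8 CPM before and 2.1, 1.63, 4.1 and 6.85 CPM after injury. None of these 4 separated the groups. The GTPases had a positive fold change in 5 of 5, with a median of 1.42. Gbp2 measured 14.5, 15.7, 13.7 and 32.6 CPM before and 40.7, 16, 12 and 25.8 CPM after injury, Gbp7 2.72, 0.216, 1.91 and 7.79 CPM and 16.5, 2.49, 4.23 and 16.1 CPM, and Igtp 3.31, 4.83, 4.24 and 1.45 CPM and 21.3, 3.08, 1.63 and 10.6 CPM. Irgm1 measured 21.3, 22.8, 35.5 and 28.8 CPM before and 43.6, 22.9, 24.1 and 54 CPM after injury. In each of these 4 BI-270 and BI-275 were above BI-272 and BI-274.

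Of the 35 members tested in both strains, 7 were higher after injury without overlap in both, beside 3.31% of all 13567 genes tested in both, namely Oas1a, Oasl2, Bst2, Trim30a, Gbp3, Psmb8 and Psmb9. No control library is shared between these comparisons. The plot of fold changes shows 35 members that were tested in both strains.

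**Figure D3:**
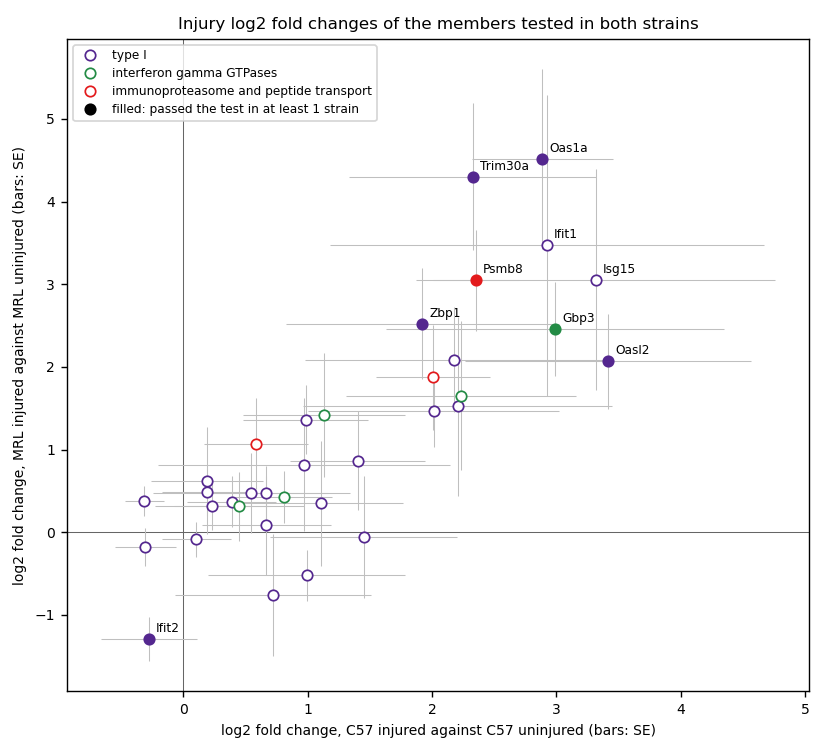
Log2 fold change after injury in C57 (horizontal axis) against that in MRL (vertical axis) for the 35 members tested in both strains, with SE bars and filled points for members called in at least 1 strain. Psmb8 lies at 2.35 and 3.05, and Ifit2 is the lowest point on the MRL axis, at -1.29.

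In C57 injured tendon BI-185 was the highest of 4 libraries for 36 of the 42 members (85.7%), whereas it was the highest for 23.6% of all genes of the interaction fit. It was the highest for 29 of 34 type I genes, for 5 of 5 GTPases and for 2 of 3 immunoproteasome and transport genes. Compared with the median of the other 3 libraries, BI-185 was higher by a median of 1.10 log2 CPM over the type I genes and by 1.55 over the GTPases, against 0.02 over all genes. Ifit1 measured 7.62, 8.32, 2.27 and 66.3 CPM in C57 injured tendon beside 10.1, 0.583, 0 and 0 CPM in uninjured tendon, Ifit3 13.1, 19.2, 6.55 and 87.8 CPM beside 6.58, 14.9, 5.09 and 0 CPM, and Ifit3b 0.06, 5.12, 3.57 and 24.3 CPM beside 6.58, 6.28, 1.77 and 1.47 CPM. BI-185 was far the highest in all 3, and the other injured libraries were no higher than the highest uninjured one, with the exception of BI-183 for Ifit3.

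In MRL injured tendon the library that was most often the highest was not the same in each class. BI-275 was the highest library for 23 of 34 type I genes (67.6%), beside 32.6% of all genes, and was above the median of the other 3 libraries by a median of 1.40 log2 CPM over the type I genes, against -0.01 over all genes. BI-270 was the highest for 4 of 5 GTPases and for 3 of 3 immunoproteasome and transport genes, beside 23% of all genes. It was higher by a median of 1.34 log2 CPM over the GTPases and by 2.07 over the immunoproteasome and transport genes, but by 0.07 over the type I genes. BI-275 was in turn higher by 1.21 over the GTPases and by 0.42 over the immunoproteasome and transport genes. BI-274 was the lowest of these libraries by the mean log2 CPM of the type I genes, at 1.77, beside 3.85 in BI-275. These are descriptions of single animals, and nothing in the labels separates BI-185, BI-270 or BI-275 from the other animals of their groups.

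BI-185 and BI-275 were singled out as the highest for most of these same members. Leaving either out was therefore bound to lower the median fold change, and only the size of the drop is described. Without BI-185 the median log2 fold change of the members tested in C57 was 0.54 instead of 1.10, and without BI-275 that in MRL was 0.35 instead of 0.87. In C57 the number of members called went from 1 to 6 without C57 uninjured replicate 4, the library rich in epidermal markers, while the share of all genes called went from 1.07% to 5.01%. It went to 0 without C57 uninjured replicate 1, 2 or 3, BI-183, BI-184 or BI-185, where 0.0667% to 0.253% of all genes were called. In MRL it went from 7 to 3 without MRL uninjured replicate 4 or without BI-270, and to 4 without MRL uninjured replicate 1 or 2, while the share of all genes called went from 7.41% to 6.11%, 5.77%, 4.64% and 5.01% in that order.

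**Figure D4:**
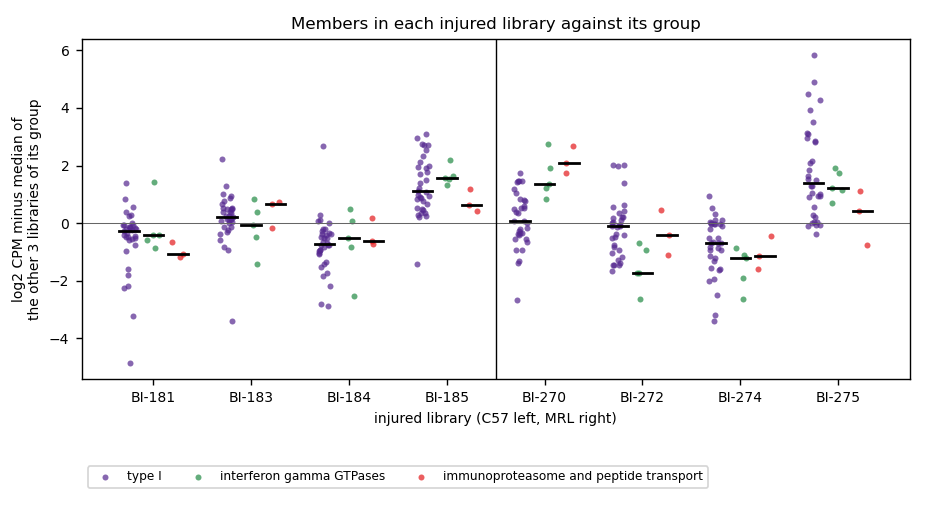
Difference in log2 CPM between each injured library (horizontal axis) and the median of the other 3 libraries of its group (vertical axis), 1 point per member, coloured by class, with a black line at the median of the class. The type I median is 1.10 in BI-185 and 1.40 in BI-275, and the immunoproteasome and transport median is 2.07 in BI-270.

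Whether injury changed the members differently in the 2 strains was tested as an interaction over all 16 libraries. Of 41 members tested 0 had an edgeR adjusted p-value under 0.05, beside 0% of all 15947 genes tested. At an unadjusted p-value under 0.05 there were 2 of 41, Ifi27 and Ifit2, beside 12.2% of all genes, and DESeq2 called 0, beside 0.551% of all genes with a positive and 0.597% with a negative interaction. The interaction log2 fold change, which is the injury fold change in MRL minus that in C57, was 0.64 for Ifi27 (SE 0.24, edgeR adjusted p = 0.345) and -1.06 for Ifit2 (SE 0.48, edgeR adjusted p = 0.399). For Psmb8 it was 0.64, with a 95% interval from -0.76 to 2.03, for Oas1a 1.57 (-0.78 to 3.92) and for Trim30a 1.92 (-0.69 to 4.53). That of Psmb8 was -0.10 without BI-270. These 3 intervals include 0 and also differences of over 2 log2 units, so that the larger number of members called in MRL than in C57 is not shown to be a difference between the strains. C57 uninjured replicate 4 enters the interaction. Without it, and without it and MRL uninjured replicate 4, 0 members were called.

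The strains were also compared directly. In uninjured tendon 0 of 35 members were called higher or lower in MRL, beside 0% of all 14055 genes tested for higher and 0% for lower. At an unadjusted p-value under 0.05 there were 4 of 35, beside 7.87% of all genes, and DESeq2 called 1, Isg20, higher, beside 0.405% of all genes called higher and 0.243% lower. The uninjured strains did not overlap in 2 members with higher levels in MRL, Isg20 and Ifi27, beside 3.14% of all genes, and in 1 with a lower level, Igtp, beside 1.91%. In injured tendon 2 of 40 members were called higher in MRL, beside 1.55% of all 14626 genes tested, and 0 were called lower, beside 1.88%. The injured strains did not overlap in 2 members with higher levels in MRL, beside 8.27% of all genes, and in 4 with lower levels, beside 7.58%. The fold change was negative in 30 of 40, with a median log2 fold change of -0.32 that became 0.07 without BI-185 and -0.84 without BI-275.

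The 2 called members were Isg20 and Ifi27. Isg20, an RNA exonuclease, measured 15.7, 18.7, 21.4 and 14.6 CPM in C57 uninjured and 46.7, 46.9, 43.5 and 23.8 CPM in MRL uninjured tendon. It measured 13.2, 14.5, 12.6 and 18.2 CPM in C57 injured and 34.7, 31.7, 42 and 33.3 CPM in MRL injured tendon. Every MRL library was above every C57 library in both states, with a log2 fold change of 1.17 in uninjured (SE 0.26, edgeR adjusted p = 0.621) and 1.24 in injured tendon (SE 0.21, edgeR adjusted p = 0.0119). Ifi27, a small mitochondrial membrane protein tied to apoptosis, measured 124, 104, 130.0 and 133 CPM in C57 uninjured and 184, 217, 177 and 139.9 CPM in MRL uninjured tendon. It measured 91, 95.6, 104 and 117 CPM in C57 injured and 194, 282, 210.5 and 245 CPM in MRL injured tendon. The strains did not overlap in either state, with a log2 fold change of 0.52 in uninjured (SE 0.17, edgeR adjusted p = 0.621) and 1.15 in injured tendon (SE 0.17, edgeR adjusted p = 0.00666). Both calls in injured tendon held without any single library. Among the MRL injured libraries Isg20 was highest in BI-274 and Ifi27 in BI-272, and neither was highest in BI-275.

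The 4 members that were lower in every MRL injured than in every C57 injured library were Stat2, Ifih1, Ifit2 and Oas2, the last named after its values were seen. They are 4 of 40 members tested, a share near that of all genes that were lower without overlap (7.58%). Stat2 measured 19.9, 22.1, 27.1 and 41.2 CPM in C57 injured and 10.6, 15.2, 13.2 and 13.6 CPM in MRL injured tendon, with a log2 fold change of -1.10 (SE 0.27, edgeR adjusted p = 0.0518). Ifih1 measured 8.58, 12.1, 7.71 and 22.9 CPM in C57 injured and 2.1, 1.63, 4.1 and 6.85 CPM in MRL injured tendon, with a log2 fold change of -1.84 (SE 0.55, edgeR adjusted p = 0.0929). Oas2 measured 3.72, 3.94, 2.92 and 5.32 CPM in C57 injured and 0.252, 1.36, 0.0882 and 0.334 CPM in MRL injured tendon, with a log2 fold change of -2.99 (SE 0.82, edgeR adjusted p = 0.0753). Without BI-272 the log2 fold change of Oas2 was -4.11 (adjusted p = 0.0333), and without any other single library its adjusted p was between 0.101 and 0.177. Ifit2 had a log2 fold change of -1.07 (SE 0.33, edgeR adjusted p = 0.103). None of the 4 passed the edgeR test, and all 4 passed with DESeq2, which called 5.21% of all 17551 genes lower and 3.27% higher in this comparison. Reads of MRL mice were mapped to the reference genome, which is that of C57BL/6J, and the part of sequence differences in these strain comparisons was not tested.

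**Figure D5:**
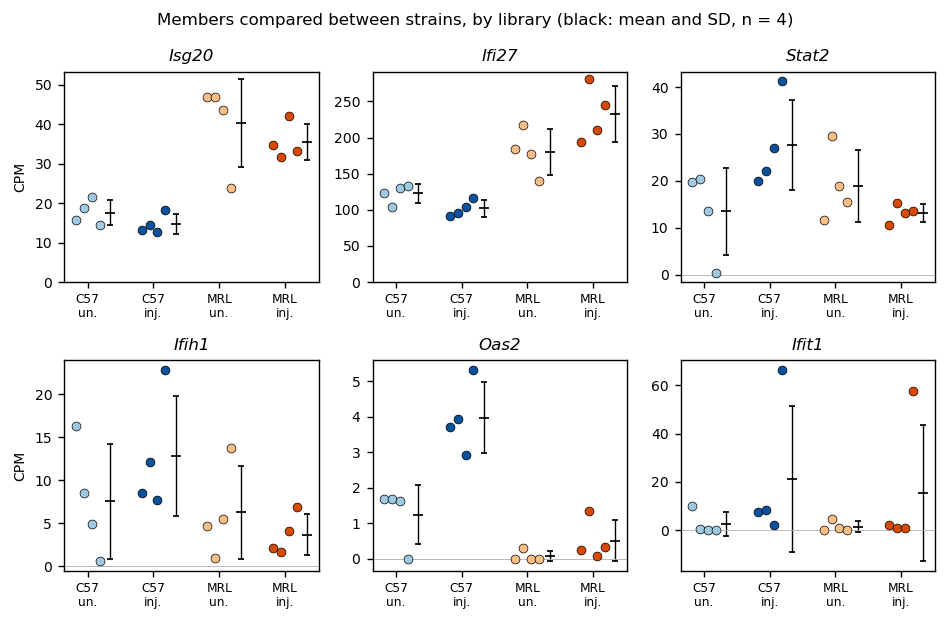
CPM of 6 members compared between strains (1 panel each, vertical axis CPM from 0) in the 4 groups (horizontal axis), 1 point per library and a black mean with SD, n = 4. Isg20 and Ifi27 lie higher in all MRL than in all C57 libraries of the same state, Oas2 is at most 1.36 CPM in any MRL library, and Ifit1 is high in BI-185 and BI-275.

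Of 39 other genes of the interferon pathway 26 were tested in each injury comparison. In C57 2 were called higher and 0 lower, beside 0.908% and 0.166% of all genes tested, and in MRL 3 were called higher and 0 lower, beside 5.25% and 2.15%. The 11 ligands searched were all untested for low counts. Ifnb1 and Ifng had 0 counts in all 16 libraries, so that in each library a level up to the floor is not excluded by counting, and the highest count of any ligand was 7, for Ifnk in the C57 uninjured group. Ifngr2, the signalling chain of the interferon gamma receptor, measured 29.2, 30.2, 37.8 and 24.2 CPM in MRL uninjured and 103, 110.5, 68.8 and 90.8 CPM in MRL injured tendon and rose by a log2 fold change of 1.62 (SE 0.20, edgeR adjusted p = 0.0017). In C57 Ifngr2 measured 46, 42.1, 27.8 and 40 CPM before and 87.2, 85.5, 80.7 and 64.4 CPM after injury, without overlap, with an edgeR adjusted p of 0.0628. Il10rb, a chain of the interferon lambda receptor that is shared with interleukin receptors, also had no overlap in either strain, at 33.96 to 43.58 CPM before and 59.39 to 73.74 CPM after injury in C57 and 42.02 to 50.07 and 53.32 to 66.34 CPM in MRL, and was not called. Jak1, the kinase of both receptors, was at 242.6 to 332.8 CPM before and 130.3 to 206.3 CPM after injury in MRL, lower without overlap, with a log2 fold change of -0.64 (edgeR adjusted p = 0.0419) that is too small for a call, and overlapped in C57. The chains Ifnar1, Ifnar2 and Ifngr1 overlapped between uninjured and injured tendon in both strains, with Ifnar1 at means of 58.1 and 73.8 CPM in C57 and 74.5 and 68.1 CPM in MRL.

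Irf5, a transcription factor of Toll-like receptor signalling in macrophages, was called in both strains, and measured 25.8, 22.7, 23.5 and 30.8 CPM and 58.3, 60.8, 65.9 and 54.9 CPM in C57 and 13.7, 18.5, 17.8 and 28.7 CPM and 53.8, 44.9, 42 and 41.8 CPM in MRL before and after injury. Its log2 fold change was 1.18 in C57 (SE 0.18, edgeR adjusted p = 0.0239) and 1.22 in MRL (SE 0.24, edgeR adjusted p = 0.0115). Tmem173, the STING adaptor of cytosolic DNA sensing, was called in C57, with a log2 fold change of 1.28 (SE 0.21, edgeR adjusted p = 0.0279). In MRL Tmem173 was at 23.66 to 33.12 CPM before and 38.18 to 69.09 CPM after injury, also without overlap, with a log2 fold change of 0.84 (edgeR adjusted p = 0.0419) that is too small for a call. Ptpn6, the SHP-1 phosphatase of leukocytes, was called in MRL, with a log2 fold change of 1.78 (SE 0.28, edgeR adjusted p = 0.00435). In C57 Ptpn6 had a log2 fold change of 1.00 (SE 0.46, edgeR adjusted p = 0.342) and overlapped. The interaction was called for neither gene.

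The summed level of 12 macrophage markers was higher in every injured than in every uninjured library, and ranged from 736.2 to 1593 CPM in C57 uninjured, 4394 to 8135 in C57 injured, 929.7 to 1535 in MRL uninjured and 3568 to 6388 in MRL injured tendon. Of these markers 6 of 12 were called higher after injury in C57, beside 0.908% of all genes, and 7 of 12 in MRL, beside 5.25%, and in injured tendon 3 of 12 were called lower in MRL than in C57, beside 1.88%. In C57 injured tendon BI-185 had a macrophage sum of 6742 CPM, below 7787 in BI-183 and 8135 in BI-184. In MRL injured tendon BI-270 (6388 CPM) and BI-275 (6045 CPM) had the highest sums, above 4355 in BI-274 and 3568 in BI-272. The summed level of 10 T and NK cell markers was 5.68 CPM in BI-185, the lowest of its group, and 7.57 in BI-275, within 5.13 to 8.39 in its group. The summed level of 4 plasmacytoid dendritic cell markers was 9.51 CPM in BI-185, beside 1.037 to 7.562 in the other C57 injured libraries. It was 7.18 CPM in BI-275, beside 5.201 in BI-274, 0.2267 in BI-272 and 0 in BI-270. Of these 4 markers 1 was tested in each injury comparison, the others being left out for low counts. The summed level of 7 neutrophil markers was 30.45 CPM in BI-275, beside 4.231 to 10.67 in the other MRL injured libraries, and 6.103 in BI-185, within 3.601 to 6.655 in its group, and it reached 142.5 in C57 uninjured replicate 3. The summed level of 6 endothelial markers ranged from 93.04 to 159.7 CPM in C57 injured and from 0.672 to 29.5 CPM in MRL injured tendon. Of these markers 2 of 6 were called lower in MRL injured than in C57 injured tendon, beside 1.88% of all genes. In uninjured tendon the sum ranged from 16.15 to 83.87 CPM in C57 and from 0.1325 to 60.69 CPM in MRL. All 6 fold changes between the uninjured strains were negative too, and 0 were called. The part of these cell types in the levels of the members was not tested.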

How the data were processed

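RNA-seq counts of 16 flexor tendon libraries were used, in 4 groups of 4 taken from the labels, where injured libraries carry a name (BI-181 and so on) and no number. Single-end 100 nt reads were cleaned by the authors (Trimmomatic 0.36) and aligned to GRCm38.p5 (STAR 2.5.2b), and the deposited table holds raw counts for 49568 gene symbols. The submitters' processing notes name featureCounts of Subread 1.5.0p3 and DESeq2 1.14.1, and the gene annotation and strand setting are not given in the sources used here. The labels describe libraries from 100 ng of RNA, whereas the methods describe pre-amplification of 1 ng, in which case counting error understates the technical error.

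Members and lists were chosen with earlier results of these data known. The genes named with values were every member called in a comparison, the 5 with the smallest adjusted p in each injury comparison and a list of well known members, with the receptors, Ifnb1, Ifng and called genes of the pathway list. Other genes named were chosen after their values were seen. The pathway counts include 1 gene that is not reported here. Each comparison was fitted with edgeR 4.0.16 in R 4.3.3 on its own libraries, the interaction on all 16, after filterByExpr and TMM, with the robust quasi-likelihood test and Benjamini-Hochberg adjustment over all genes tested, and the tests were checked on simulated counts, where DESeq2 found more of the changed genes than edgeR and made more false calls. CPM used TMM-scaled totals, log2 CPM a prior count of 2, the SE was the absolute log2 fold change over the square root of its F, and the 95% interval spans 1.96 SE. Alternatives were DESeq2 1.42.0, upper-quartile factors, total counts, no filter, at least 10 counts in at least 4 libraries, 1 fit over all libraries, a replicate block and each library left out in turn. Promoters came from RefSeq and gene positions from GENCODE M21. The p-values measure the spread between libraries, with 1 library from each animal. Differences between animals cannot be told apart in it from those of dissection and library preparation.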

Additional observations from a re-analysis of the deposited data

Results flagged for a closer look

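In a group of 4 libraries, a value was singled out when its distance to the nearest other library as a share of the whole range of the group, on the log2 CPM scale, exceeded Dixon's 95% critical value. Of 175 checks of members and class means 19 did so, and no explanation was weighed. The chance rate of about 1 in 20 holds for independent checks of normal values. These checks share libraries, and some flagged values stood against libraries that were all at 0 counts, which fixes the outcome. The 19 are therefore not read as more than chance gives. The value in C57 uninjured replicate 4 was low for Stat2 (-0.82 log2 CPM), Ifit2 (3.70), Oas2 (-3.06), Cmpk2 (0.61), Bst2 (-3.06) and Trim30a (-3.06), where -3.06 is the value of 0 counts. In the same group Ifi44 was high in replicate 2 (-0.97), the other libraries being at 0. Among C57 injured libraries BI-185 was high for Ifit2 (5.41) and Cmpk2 (4.61), a kinase gene next to Rsad2.

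Among MRL uninjured libraries replicate 2 was high for Oas2 (-1.29), and replicate 4 was low for Isg20 (4.58) and Isg15 (-3.06) and high for Ifi44 (0.12) and Gbp2 (5.03). Among MRL injured libraries BI-270 was high for Irf9 (5.14) and Oas1a (2.96), and BI-275 was high for Ifit3 (4.82), Oasl1 (4.00) and Mx2 (-0.24), the last with the other libraries at 0. Without C57 uninjured replicate 4 the number of members called in C57 was 6 instead of 1, and without BI-275 the number in MRL was 6 instead of 7. The share of all genes called without BI-275 is not given here, so no change particular to the members is read from that number.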

How the results depend on the processing

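In C57 the number of members called after injury was 5 with DESeq2 and 2 with total counts in place of TMM (1.18% of all genes called), instead of 1 (1.07%), and ranged from 0 to 6 when a library was left out. In MRL it was 12 with DESeq2 and 4 in 1 fit over all 16 libraries (5.04% of all genes called), instead of 7 (7.41%), and ranged from 3 (5.77% and 6.11%) to 10 (8.58%, without BI-274) when a library was left out, and the 4 were Oas1a, Trim30a, Psmb8 and Ifit2. Between the injured strains DESeq2 called 6 members instead of 2, beside 3.27% of all genes higher and 5.21% lower, and the number ranged from 2 to 3 when a library was left out. Between the uninjured strains DESeq2 called 1 member instead of 0. The interaction stayed at 0 members under every alternative run.

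In all genes the C57 comparison had 155 calls, which became 907 with DESeq2 and between 10 and 750 when a library was left out, and the MRL comparison had 1057 calls, which became 1818 with DESeq2. Of the log2 fold changes of single members recomputed under the alternatives 1 reversed its sign, the interaction of Psmb8. It was -0.10 without BI-270 instead of 0.64 and lay between -0.10 and 1.01 when a library was left out. The interaction of Oas1a lay between 1.15 and 3.18 and that of Trim30a between 0.91 and 2.43 when a library was left out. With DESeq2 in place of edgeR, Oas1a (2.95), Psmb9 (2.07) and Oasl2 (3.49) were called in C57 and so was Mx1, which edgeR did not test, Psmb9, Rsad2, Bst2, Irf7 and Rtp4 in MRL, and Stat2, Ifih1, Oas2 and Ifit2 between the injured strains. With total counts in place of TMM, Oas1a was called in C57 (adjusted p = 0.0468) and Stat2 between the injured strains (adjusted p = 0.0338). Without C57 uninjured replicate 4, Oas1a and Psmb9 were called in C57, at adjusted p-values of 0.0185 and 0.0429. In the fit over all 16 libraries Zbp1, Gbp3 and Oasl2 lost their call in MRL, and without a low count filter Oasl2 lost it. The cause of these changes was not tested.

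Replicate numbers are shared by the uninjured groups, but same-numbered libraries come from different animals of different strains, and the correlation of their deviations lay between -0.262 and 0.0157, and no library correlated best with its own number, so the numbers do not pair them. With the replicate number as a replicate block, 0 members were called between the uninjured strains, and the log2 fold change of Isg20 was 1.13 (adjusted p = 0.786) and that of Ifi27 0.51 (adjusted p = 0.85). With a floor near 0.2 CPM the low count filter left Oas3, Mx1 and Mx2 out of both injury comparisons by edgeR.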

Other observations

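Members not yet described by their values were low or overlapped between the groups in most cases. Ddx58, the RIG-I sensor of short RNA with a free end, measured 6.72, 23.6, 18 and 30.5 CPM in C57 injured and 18.1, 23.4, 24.2 and 44.2 CPM in MRL injured tendon, and Dhx58, its regulator LGP2, 0.9, 9.37, 5.83 and 23.6 CPM and 3.57, 6.26, 9.08 and 15.5 CPM. Ifi44 measured 0.6, 0.74, 0.389 and 1.21 CPM in C57 injured and 1.39, 0.544, 0.926 and 23.5 CPM in MRL injured tendon, Oasl1, a translational inhibitor of Irf7, 0.84, 1.23, 0.0648 and 6.32 CPM and 1.26, 1.9, 1.76 and 15.9 CPM, and Rtp4 12.5, 14.4, 6.87 and 42.9 CPM and 12.5, 14.6, 4.85 and 45 CPM. In each of these 5 genes BI-275 was the highest MRL injured library, and BI-185 was the highest C57 injured library.

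Ifi35, Parp9, Parp14 and Dtx3l were called by edgeR in none of the 5 comparisons. Ifi35 ranged from 19.5 to 43.6 CPM over the 16 libraries, Parp9, an ADP-ribosyltransferase-like partner of Dtx3l, from 9.32 to 35.4, Parp14 from 1.19 to 16.5 and Dtx3l from 1.93 to 13.9. Cmpk2, a mitochondrial nucleotide kinase, measured 5.52, 5.48, 5.51 and 24.3 CPM in C57 injured tendon, so that 3 libraries lay within 5.48 to 5.52 CPM and BI-185 far above them. Oas3 was at 0 in all 8 uninjured libraries and measured 1.14, 0, 2.92 and 0.355 CPM in C57 injured tendon, and Mx2 was at 0 in 3 of the 4 MRL injured libraries.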
